A study of Bos taurus with 48 samples.

Results

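A total of 10 genes of fatty acid and triglyceride synthesis were followed in bovine longissimus (LTL) muscle: FASN, SCD, ACACA, ACLY, ELOVL6, THRSP, DGAT2, AGPAT2, SREBF1 and FADS1. A probe was taken as a member when its gene name in the deposited files, or the symbol in parentheses in its description, was 1 of these, which gave 18 of 21475 probes and 10 of the 14634 genes tested. Biopsies of 35 animals were hybridised to 48 Agilent arrays with 2 colours, each holding 1 animal in Cy3 and 1 in Cy5. In the developmental arrays an animal of the Piedmontese × Hereford cross was set against 1 of the Wagyu × Hereford cross (called Piedmontese and Wagyu here) in gestation (60, 135 and 195 days) and at birth, on 3 arrays an age, and at 3, 7, 12, 20, 25 and 30 months, on 4 arrays an age. In the diet arrays Belmont Red cattle of the weight loss diet group (restricted) were set against Belmont Red cattle of the growth diet group. There were 4 arrays for each of the times 0, 1 and 2. The authors describe an experiment of deprivation and re-alimentation in adult cattle, and the labels do not state the phase of each time. A single animal of each cross was hybridised 3 times for the age of 60 days. The numbers of Piedmontese and Wagyu animals were 3 and 2 at 135 days, 2 and 3 at 195 days, 3 and 3 at birth, 4 and 2 at 12 months, and 4 and 4 at every other post-natal age. The restricted and growth animals numbered 4 and 4 at time 0, 3 and 4 at time 1, and 2 and 2 at time 2. The 2 Piedmontese codes at 195 days differ by a letter and were counted as 2 animals. Post-natal animals were biopsied at several ages, and animal was therefore a random block in every fit of ages.

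Fatty acid synthesis turns acetyl units into palmitate in the cytosol. ACLY makes cytosolic acetyl-CoA from citrate, ACACA carboxylates it to malonyl-CoA, and FASN builds the chain. ELOVL6 lengthens the product and SCD introduces its first double bond, while FADS1 desaturates longer polyunsaturated chains. AGPAT2 and DGAT2 act in the assembly of triglyceride, DGAT2 in its last step. SREBF1 encodes a transcription factor of lipid synthesis genes, and THRSP encodes a nuclear protein linked to lipogenesis. Adipocytes that lie between the muscle fibres form the marbling of beef, for which Wagyu cattle are known, whereas Piedmontese cattle are known for lean, heavy muscle. In a biopsy that holds fibres, adipocytes and other cells, fewer cells of a type and less RNA per cell cannot be told apart.

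FASN was measured by 4 probes and SCD by 6, and each of the other genes by 1. The probes of SREBF1, FADS1, AGPAT2 and ELOVL6 take their names from descriptions as bovine transcripts similar to the human genes. The sequences of 3 FASN probes are shown because probes named for 1 gene differed in brightness, which limits the change that each can show. Each has 60 bases and holds a reading frame without a stop codon. Their position in the transcript is not given in the sources used here, and no base is set in capitals.
A_73_104455: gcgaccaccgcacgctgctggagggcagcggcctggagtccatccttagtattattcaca
A_73_101920: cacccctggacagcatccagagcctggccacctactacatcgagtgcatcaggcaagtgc
A_73_101323: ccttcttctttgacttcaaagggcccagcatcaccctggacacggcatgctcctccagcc
The mean normalised log2 intensity over all channels was 8.89 for A_73_104455, 8.19 for A_73_101920 and 7.20 for A_73_101323. The first 2 were well above background in 96 of 96 channels and correlated at r = 0.97 over the 26 condition means. A_73_101323 was well above background in 61 channels and correlated with A_73_104455 at r = 0.54. The fourth FASN probe, A_73_101384, was the brightest at 12.88. Of the 6 SCD probes, 3 passed the filter on dim probes, namely A_73_106141 at 12.64, A_73_116477 at 9.08 and A_73_115597 at 6.88. A_73_115597 was well above background in 24 channels and its condition means stayed between 6.77 and 7.07. A gene's value is the mean log2 intensity of its probes that passed, so a change of SCD or FASN is smaller in this mean than in the bright probes. Levels of different genes were not compared with each other, because each probe has its own brightness.

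The share of spots well above background lay between 49.9 and 72.8% in Cy3 and between 55.1 and 76.4% in Cy5, and the number of arrays limits the precision. Of the members, THRSP was well above background in 87 of 96 channels, DGAT2 in 95, and the others in 96. The library labelled Piedmontese on the second array of 135 days went against its tissue label. Its mean log2 intensity over 8 skeletal muscle fibre markers was 9.26, against 13.58 and 13.78 in the other Piedmontese libraries and 13.91 and 14.16 in the Wagyu libraries of that age. Its mean over 9 adipocyte markers was 12.65, whereas no other library of that age was above 8.89. All 10 members were highest in this library among the 5 animals of that age. For DGAT2 the value was 15.48 against 7.85 and 9.63 in the other Piedmontese libraries, and for AGPAT2 it was 17.43 against 12.05 and 13.54. Because the fit shares 1 spread over all ages, this library also widens the errors of ages it does not belong to. Every developmental count of members called in the fit of all ages is therefore given with all libraries and, where it differs, also without it, called the 135-day library. Counts of markers and of other pathway genes are given with all libraries only. In the developmental libraries from birth on, the muscle fibre mean lay between 15.46 and 16.22.

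**Figure D1:**
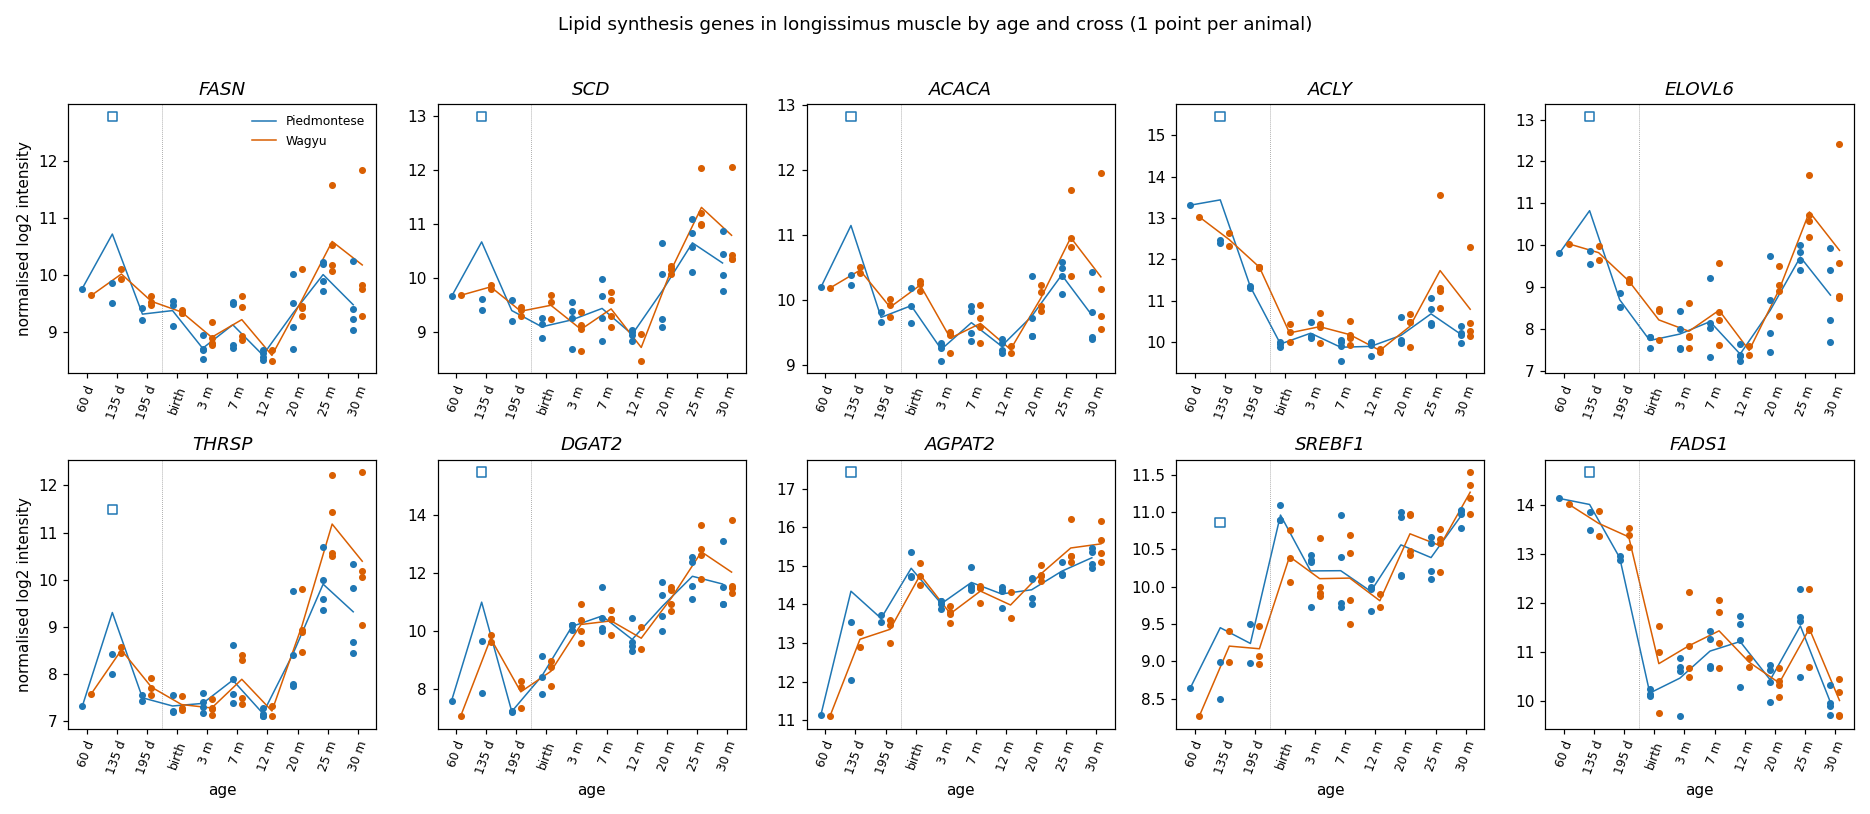
Normalised log2 intensity of the 10 genes (vertical axis) at each age (horizontal axis, d for days of gestation and m for months), with 1 point per animal, a line through the means of each cross, and a dotted line between fetal ages and birth. The open square is the 135-day Piedmontese library low in muscle markers, which is the highest of its age for every gene. The means of FADS1 and ACLY are highest in the fetus, but for ACLY 1 Wagyu animal at 25 months lies above the youngest Wagyu fetus. THRSP, SCD and ELOVL6 of both crosses are higher at 25 months than at 12 months.

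The first question was how these genes differ between the fetus and the animal after birth. The mean of the 6 post-natal ages was compared with that of the 3 fetal ages within each cross by limma, with Benjamini-Hochberg adjustment over all genes. In Wagyu 5 members passed, 3 higher and 2 lower after birth, against 69.7% of all genes. In Piedmontese 8 members passed, 3 higher and 5 lower, against 71.8% of all genes. Most genes of the array changed across birth, and the share of members that passed is read against this. Markers of other cells moved as well. Of 8 muscle fibre markers 7 were higher after birth in Piedmontese and 6 in Wagyu, with medians of 2.68 and 2.13, and of 9 adipocyte markers 4 and 9 were higher. The Piedmontese fetal values include the 135-day library with its adipocyte mean of 12.65, and the marker counts are given with it only. In each cross all 6 fibroblast and connective tissue markers were lower (medians -2.63 and -2.70), as were 4 of 4 blood markers (medians -4.63 and -4.39) and 4 of 5 endothelial markers, while 5 of 6 immune markers were higher. The part of these markers in the results was not tested. In addition, fetal and post-natal animals lie on different slides, so age and slide cannot be told apart in this contrast. With median centring 7 members passed in Piedmontese, 3 higher and 4 lower, and 6 in Wagyu, 4 higher and 2 lower.

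FADS1 had the largest fall of the members. It was 14.14 at 60 days, 12.88 and 12.97 at 195 days and 10.10, 10.13 and 10.24 at birth in the Piedmontese animals. The Wagyu values were 14.02 at 60 days, 13.13, 13.39 and 13.53 at 195 days and 9.74, 11.005 and 11.53 at birth. All fetal animals of both crosses lay above all animals after birth, whose highest value was 12.28. From fetus to post-natal life FADS1 fell by 2.92 (SE 0.31) on the log2 scale in Piedmontese (limma adjusted p = 6.99e-12) and by 2.81 (SE 0.31) in Wagyu (adjusted p = 4.22e-11), which is 7.57-fold and 7.03-fold lower. ACLY, which makes cytosolic acetyl-CoA from citrate, also fell in both crosses. Its values were 13.31 and 13.03 at 60 days, 11.31 and 11.37 (Piedmontese) and 11.80, 11.82 and 11.82 (Wagyu) at 195 days, and 9.89 to 10.43 at birth. It fell by 2.52 (SE 0.32) in Piedmontese (adjusted p = 1.41e-09) and by 1.92 (SE 0.33) in Wagyu (adjusted p = 1.19e-06).

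The assembly enzymes and the regulator moved the other way. DGAT2 was 7.20 and 7.22 in Piedmontese and 7.35, 8.07 and 8.25 in Wagyu fetuses of 195 days, and 10.04 to 10.19 and 9.59 to 10.91 at 3 months, so these ages did not overlap. The Wagyu fetuses of 135 days, with values given below, lay inside the Wagyu range of 3 months, however. The 135-day library lay above all animals of 3 months. It rose by 2.79 (SE 0.58) in Wagyu (limma adjusted p = 3.59e-05), or 6.92-fold, and by 2.19 (SE 0.57) in Piedmontese (adjusted p = 0.00064). Without the 135-day library the Piedmontese rise was 2.95. AGPAT2 rose by 2.17 (SE 0.34) in Wagyu and 1.51 (SE 0.34) in Piedmontese, where it was 2.01 without that library. SREBF1 rose by 1.58 (SE 0.23) and 1.32 (SE 0.22). Of the chain builders, ELOVL6 fell in Piedmontese by 1.37 (SE 0.44, adjusted p = 0.00507), FASN by 0.70 (SE 0.31, adjusted p = 0.0402) and ACACA by 0.66 (SE 0.26, adjusted p = 0.0235). The FASN and ACACA calls rested on the 135-day library. Without it FASN differed by -0.36 (adjusted p = 0.183) and ACACA by -0.38 (adjusted p = 0.105), and 6 members passed in each cross, THRSP being the one added in Wagyu at 0.85 (adjusted p = 0.0183), against 72.1% of all genes in Piedmontese and 71.3% in Wagyu. With 1 value per animal over all its ages, 4 Piedmontese members passed, and DGAT2 and AGPAT2 were not among them.

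The step from 195 days to birth could be read within slides, because the same slides hold both ages. The 3 slides held 2 Piedmontese animals of 195 days, so the Piedmontese slide counts repeat an animal. In this step FADS1 fell by 2.76 (SE 0.51) in Piedmontese (limma adjusted p = 1.42e-05) and by 2.61 (SE 0.46) in Wagyu (adjusted p = 5.79e-06), and it was lower at birth on 3 of 3 slides in each cross. SREBF1 was 8.98 and 9.5 in Piedmontese fetuses of 195 days and 10.89, 10.90 and 11.09 at birth. It rose by 1.70 (SE 0.37) in Piedmontese and by 1.28 (SE 0.34) in Wagyu, where the values went from 8.97, 9.07 and 9.47 to 10.07, 10.39 and 10.76, and it was higher on 3 of 3 slides in each cross. ACLY fell by 1.38 (SE 0.54, adjusted p = 0.0291) and by 1.59 (SE 0.48, adjusted p = 0.0051). The Piedmontese ACLY call was lost with slide as a fixed block, with the 2 look-alike animals of 195 days counted as 1, with the fetal and newborn animals fitted apart, under median centring, and in 4 of 6 fits that left out an array. AGPAT2 rose in Wagyu by 1.51 (SE 0.51, adjusted p = 0.0115), a call lost with slide as a fixed block (1.45, adjusted p = 0.161), and in Piedmontese by 1.27 (SE 0.30, adjusted p = 0.000404) only without the 135-day library. The members called numbered 3 in Piedmontese, against 52.1% of all genes, and 4 in Wagyu, against 51.3%. Without that library 4 passed in Piedmontese, against 54.4%. Markers of other cells also moved in this step, since in each cross 5 of 6 fibroblast and connective tissue markers, 4 of 5 endothelial markers and 4 of 4 blood markers were lower at birth, and their part in these results was not tested.

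Within gestation, calls depended on the 135-day library. From 60 to 135 days AGPAT2 rose in Piedmontese by 3.31 (SE 0.72, limma adjusted p = 0.000985) with all libraries and by 1.76 (adjusted p = 0.00161) without it. The background was 9.55% of genes, or 11.9% without the library. In Wagyu no member passed with all libraries (4.55% of genes), and 2 were under an unadjusted p of 0.05. Without the library DGAT2 rose by 2.76 (adjusted p = 0.0268) and AGPAT2 by 1.93 (adjusted p = 0.000856) in Wagyu, against 6.53% of genes. From 135 to 195 days ACACA, ACLY, ELOVL6 and DGAT2 passed in Piedmontese with changes of -1.42 to -3.79, against 15.5% of genes, and none passed without the library, against 11.5%. In Wagyu none passed in that step (6.37% of genes, 0 members under an unadjusted p of 0.05), and DGAT2 fell by 1.86 (adjusted p = 0.0426) without the library, against 8.58% of genes. In the Wagyu animals DGAT2 was 7.05 at 60 days, 9.61 and 9.86 at 135 days and 7.35 to 8.25 at 195 days. The single animal of each cross at 60 days is assumed in these fits to vary like the other ages.

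Between birth and 12 months few changes were called. From birth to 3 months no member passed in either cross, against 34% of genes in Piedmontese and 27% in Wagyu, while 2 members in each cross had an unadjusted limma p under 0.05. Without the 135-day library DGAT2 rose by 1.67 (adjusted p = 0.00784) in Piedmontese and 1.64 (adjusted p = 0.011) in Wagyu, and AGPAT2 fell by 0.90 and 1.03. In the same fits SREBF1 fell by 0.69 in Piedmontese and ACACA by 0.80 in Wagyu. The background was then 36.6% in Piedmontese and 29.8% in Wagyu. From 3 to 7 months no member passed, against 3.49% and 4.64% of genes, and from 7 to 12 months none passed, against 9.56% in Piedmontese and 0.349% in Wagyu. In these 4 comparisons 0 members had an unadjusted p under 0.05. Both steps lie within slides, however, and the signs there were more uniform than these tests convey. AGPAT2 was higher at 7 than at 3 months on 4 of 4 slides in each cross, by 0.28 to 0.89 in Piedmontese and 0.47 to 0.68 in Wagyu. With slide as a fixed block it was called in both, at 0.55 (limma adjusted p = 0.00637) and 0.59 (adjusted p = 0.00431), against 5.91% of genes in Piedmontese and 6.18% in Wagyu. FASN, ACACA, ELOVL6 and THRSP were lower at 12 than at 7 months on 4 of 4 slides in each cross. The 4 Wagyu arrays of 12 months held 2 animals. In animals biopsied at both ages, each of these members fell in 3 of 3 Piedmontese and 2 of 2 Wagyu animals. With the block 0 members were called in this step either, with 6 of 10 under an unadjusted limma p of 0.05 in each cross, all 6 lower at 12 months, and lowest adjusted p of 0.0851 in Piedmontese and 0.106 in Wagyu, against 11.4% and 4.45% of genes called.

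The second question was what happens to the genes as the animals grow and fatten, from 3 to 30 months. In Wagyu 9 of the 10 members passed, 8 higher and 1 lower, against 23.4% of all genes. In Piedmontese 4 passed, all higher, against 18.6%. Without the 135-day library the same contrast gave 9 in Wagyu (24.8% of genes) and 6 in Piedmontese (19.9%), FASN at 0.77 (adjusted p = 0.0376) and DGAT2 at 1.46 (adjusted p = 0.00846) being added. The median change of the members was 1.51 in Wagyu and 0.85 in Piedmontese, and that of all genes tested was -0.03 in each cross. With median centring in place of loess and Aquantile, SCD, THRSP and AGPAT2 alone passed in Wagyu and none in Piedmontese, where ACLY and FADS1 also changed sign.

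THRSP rose most. In the 4 Piedmontese animals it was 7.17, 7.31, 7.42 and 7.60 at 3 months and 8.45, 8.67, 9.83 and 10.32 at 30 months. The 4 Wagyu animals had 7.13, 7.26, 7.27 and 7.46 at 3 months and 9.05, 10.05, 10.18 and 12.29 at 30 months. The ages did not overlap in either cross. The rise was 1.94 (SE 0.43), or 3.85-fold, in Piedmontese (limma adjusted p = 0.00103) and 3.11 (SE 0.43), or 8.66-fold, in Wagyu (adjusted p = 6.39e-07). THRSP was near the dim end of the array at 3 months, where the offset added in background correction compresses differences.

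Among the desaturases, SCD was 8.70, 9.26, 9.40 and 9.56 in Piedmontese at 3 months and 9.77, 10.06, 10.44 and 10.87 at 30 months. The Wagyu values were 8.65, 9.07, 9.14 and 9.37, and then 10.35, 10.36, 10.43 and 12.05. SCD rose by 1.05 (SE 0.36, limma adjusted p = 0.0312) in Piedmontese and by 1.74 (SE 0.36, adjusted p = 0.000288) in Wagyu. Its 2 bright probes rose by 2.77 and 2.64 in Wagyu and by 1.55 and 1.77 in Piedmontese, whereas the dim probe A_73_115597 differed by -0.19 and -0.17 and pulled the gene's mean down. FADS1 went the other way and fell by 1.12 (SE 0.34, adjusted p = 0.0131) in Wagyu, from 10.48, 10.68, 11.11 and 12.22 to 9.69, 9.72, 10.17 and 10.43. In Piedmontese it differed by -0.50, which did not pass.

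For the chain builders the Wagyu changes were 1.27 (SE 0.35, limma adjusted p = 0.00559) for FASN, 0.94 (SE 0.30, adjusted p = 0.0162) for ACACA and 1.93 (SE 0.49, adjusted p = 0.00313) for ELOVL6. The 3 brighter FASN probes, A_73_101384, A_73_101920 and A_73_104455, rose by 1.91, 1.29 and 1.68, and the dim A_73_101323 differed by 0.21 and did not pass. The Wagyu change of ACLY was 0.42 and did not pass. In assembly, DGAT2 rose by 1.81 (SE 0.63, adjusted p = 0.0326) in Wagyu. AGPAT2 was 13.89, 14.00, 14.09 and 14.10 in Piedmontese at 3 months and 14.95, 15.05, 15.36 and 15.47 at 30 months. It rose by 1.19 (SE 0.38, adjusted p = 0.0214) there and by 1.81 (SE 0.38, adjusted p = 0.000375) in Wagyu, from 13.53, 13.75, 13.80 and 13.96 to 15.11, 15.34, 15.66 and 16.16. SREBF1 rose by 0.74 (SE 0.25, adjusted p = 0.0306) in Piedmontese and by 1.16 (SE 0.25, adjusted p = 0.000549) in Wagyu.

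**Figure D2:**
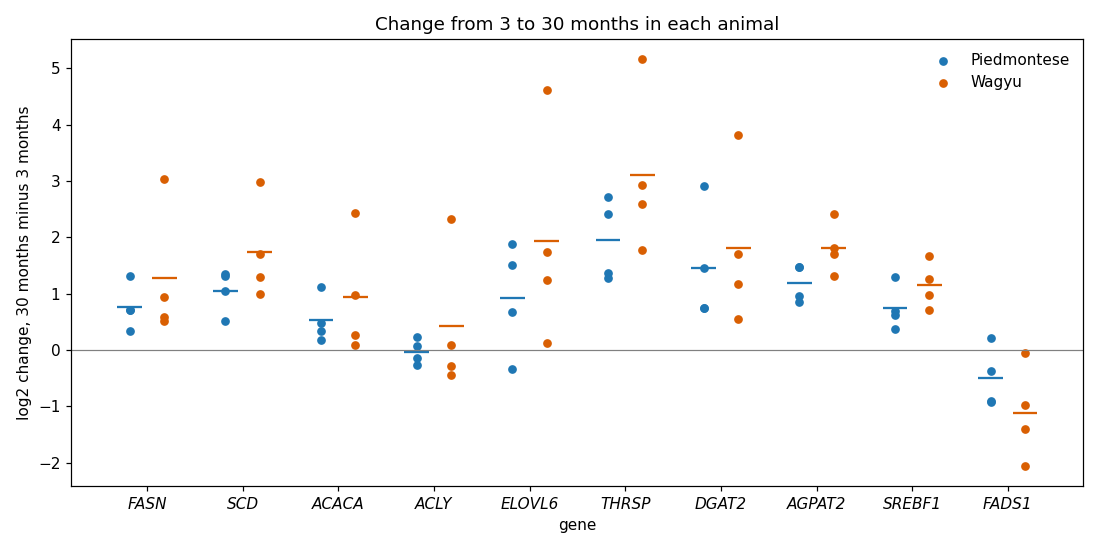
Change in log2 intensity from 3 to 30 months (vertical axis) of each gene (horizontal axis), with 1 point for each of the 4 Piedmontese and 4 Wagyu animals biopsied at both ages a short bar at each cross's mean and a line at no change. Points of FASN, SCD, ACACA, THRSP, DGAT2, AGPAT2 and SREBF1 lie above 0 in 4 of 4 animals of each cross, and 1 Wagyu animal has the highest THRSP change, 5.16.

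Each animal could be compared with itself. FASN, SCD, ACACA, THRSP, DGAT2, AGPAT2 and SREBF1 were higher at 30 than at 3 months in 4 of 4 animals of each cross. ELOVL6 was higher in 3 of 4 Piedmontese and 4 of 4 Wagyu animals, ACLY in 2 of 4 of each, and FADS1 in 1 of 4 and 0 of 4. The Wagyu animal with the highest values at 30 months (FASN 11.84, ELOVL6 12.41, ACLY 12.30) also had the largest change. Without the array that holds it, 4 Wagyu members passed in place of 9: SCD at 1.33, THRSP at 2.57, AGPAT2 at 1.55 and SREBF1 at 1.01. FASN (0.77), ACACA (0.46), ELOVL6 (1.17), DGAT2 (1.22) and FADS1 (-0.97) then missed the threshold. In Piedmontese, THRSP alone passed (1.71, adjusted p = 0.0108) without the fourth array of 30 months. The 3-month and 30-month arrays lie on different slides. In the scan session that held arrays of both ages for 2 animals of each cross, all members but ACLY, ELOVL6 and FADS1 were higher at 30 months in 2 of 2 animals of each cross.

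From 3 to 30 months adipocyte markers moved in the same direction as most of these genes. Of the 9 markers tested, 7 rose in Piedmontese with a median of 1.54, and 9 rose in Wagyu with a median of 2.14. The lipid droplet gene CIDEC rose by 3.26 in Piedmontese and 4.38 in Wagyu, and the fatty acid carrier FABP4 by 2.58 and 3.89. The mean of the list went from 8.58 to 10.34 in Piedmontese and from 8.22 to 10.89 in Wagyu. At 30 months its range was 9.37 to 11.56 in Piedmontese and 10.07 to 12.71 in Wagyu. Of the 8 muscle fibre markers none passed the limma test in either cross, and their medians were -0.14 and -0.02. Over the 12 post-natal condition means the members correlated with the adipocyte list at r = 0.74 (ACLY) to 0.97 (THRSP), except FADS1 at r = -0.23. These means share animals and slides, so r is given as a description. Markers of other cells were lower at 30 months, namely 2 of 6 fibroblast and connective tissue markers in Piedmontese and 3 in Wagyu, 2 and 4 of 5 endothelial markers, and 3 and 4 of 4 blood markers. How much of each gene's change followed the amount of fat in the biopsy was not tested.

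**Figure D3:**
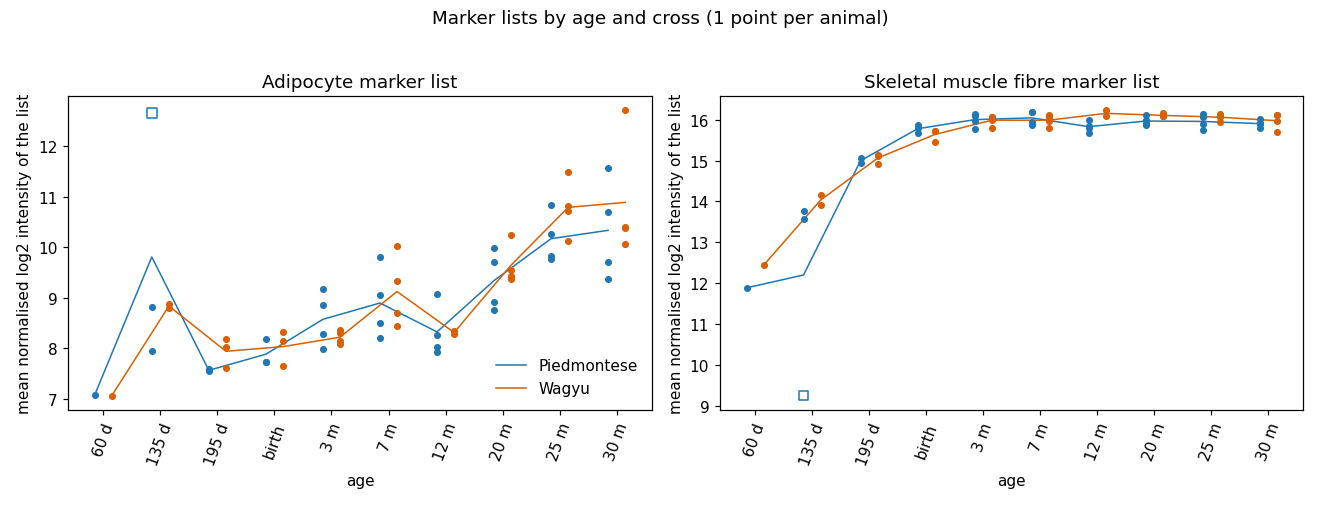
Mean log2 intensity of the adipocyte list (9 genes) and the skeletal muscle fibre list (8 genes) on the vertical axis, by age on the horizontal axis, with 1 point per animal and lines through the means of each cross. The adipocyte mean is higher at 30 months (10.34 and 10.89) than at 3 months (8.58 and 8.22), and the open square at 135 days is the Piedmontese library with an adipocyte mean of 12.65 and a muscle fibre mean of 9.26.

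The step from 12 to 20 months lies within slides. No member passed in either cross, against 4.79% of genes in Piedmontese and 0.56% in Wagyu, and 6 members in each cross had an unadjusted limma p under 0.05. FASN, SCD, ACACA, ACLY, ELOVL6, THRSP, DGAT2 and SREBF1 were higher at 20 months on 4 of 4 slides in both crosses. The 4 Wagyu arrays of 12 months held 2 animals, however, so some Wagyu slides repeat an animal or compare different animals. In animals biopsied at both ages, each of these members rose in 4 of 4 Piedmontese and 2 of 2 Wagyu animals. The Wagyu calls with slide as a fixed block rest on the same 2 animals at 12 months. Without the 135-day library THRSP rose by 1.27 (adjusted p = 0.0312) in Piedmontese and by 2.04 (adjusted p = 0.0217) in Wagyu, where SCD rose by 1.55 (adjusted p = 0.012). The background was then 5.56% in Piedmontese and 0.656% in Wagyu. With slide as a fixed block and all libraries, 9 members were called in Wagyu, all higher at 20 months, against 4.77% of genes, and 3 in Piedmontese, against 5.97%. In Wagyu THRSP rose by 1.78 (SE 0.29, adjusted p = 0.00141) and SCD by 1.33 (SE 0.26, adjusted p = 0.00539) in that fit, and FADS1 was the member not called. In Piedmontese THRSP rose by 1.27 (SE 0.29, adjusted p = 0.0118), DGAT2 by 1.14 (SE 0.34, adjusted p = 0.048) and FASN by 0.74 (SE 0.21, adjusted p = 0.0374). Markers moved in this step too. The adipocyte mean went from 8.33 to 9.34 in Piedmontese and from 8.32 to 9.65 in Wagyu. The blood mean went from 7.97 to 9.33 in Piedmontese and from 7.65 to 9.54 in Wagyu. The part of these markers in the results was not tested.

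From 20 to 25 months THRSP rose by 2.16 (SE 0.43, limma adjusted p = 0.00676), ELOVL6 by 1.85 (SE 0.49, adjusted p = 0.0453) and ACLY by 1.35 (SE 0.36, adjusted p = 0.0453) in Wagyu, against 1.33% of all genes. ELOVL6 was 8.30, 8.91, 9.05 and 9.5 at 20 months and 10.18, 10.58, 10.72 and 11.68 at 25 months, without overlap. The ELOVL6 call was lost without each of the 8 arrays of these ages in turn, and the THRSP call without the first array of 25 months. The ACLY call was kept in 1 of these 8 fits, and its change was 0.46 under median centring. In Wagyu at 25 months ACLY was 13.55 in 1 animal and at most 11.31 in the others. All 3 calls were lost without the animal block and under median centring. Without the 135-day library 7 members passed, FASN, SCD, ACACA and DGAT2 being added at 0.94 to 1.59, against 1.71% of genes. In Piedmontese none passed in this step, against 0.287% of genes, and 5 members had an unadjusted p under 0.05. Adipocyte markers moved in the same direction, with medians of 1.10 in Wagyu and 0.88 in Piedmontese and 1 and 0 of 9 called, and their mean went from 9.65 to 10.79 in Wagyu and from 9.34 to 10.17 in Piedmontese. The mean of the blood markers went from 9.33 to 10.93 in Piedmontese, where 2 of 4 rose, and from 9.54 to 10.19 in Wagyu, where 0 passed. The part of these markers in the results was not tested. These ages lie on different slides. In the scan session shared by 2 animals of each cross, all members but SREBF1 were higher at 25 months in 2 of 2 animals of each cross.

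From 25 to 30 months FADS1 fell in both crosses, and this step lies within slides. The Piedmontese values were 10.48, 11.63, 11.72 and 12.28 at 25 months and 9.70, 9.89, 9.95 and 10.31 at 30 months. The Wagyu values were 10.70, 11.45, 11.46 and 12.28, and then 9.69, 9.72, 10.17 and 10.43. The ages did not overlap in either cross, and FADS1 was lower in 4 of 4 animals of each. It fell by 1.57 (SE 0.34, limma adjusted p = 0.00314) in Piedmontese and by 1.47 (SE 0.34, adjusted p = 0.00476) in Wagyu. With median centring in place of loess and Aquantile, the median of all genes moved to 0.41 and 0.54, and FADS1 differed by -0.74 and -0.38 and did not pass. In the same step the mean of the adipocyte markers went from 10.17 to 10.34 in Piedmontese and from 10.79 to 10.89 in Wagyu. Blood markers fell, 3 of 4 in each cross with medians of -3.36 and -2.92. The part of these markers in the result was not tested. FADS1 was the single member called in each cross, against 5.43% of genes in Piedmontese and 6.77% in Wagyu. The estimates of 2 of 10 members were above 0 in each cross, with member medians of -0.51 in Piedmontese and -0.65 in Wagyu. FASN, SCD, ACACA, ACLY, ELOVL6 and THRSP were also lower at 30 months on 2 of 2 slides in each cross. AGPAT2 and SREBF1 were higher on 2 of 2, and DGAT2 was lower on 1 of 2 in Piedmontese and 2 of 2 in Wagyu. Without the 135-day library ACLY fell by 0.93 (adjusted p = 0.032) and SREBF1 rose by 0.72 (adjusted p = 0.0232) in Wagyu, against 7.8% of genes, and SREBF1 was higher at 30 months in 4 of 4 animals of each cross. With slide as a fixed block SREBF1 was called beside FADS1 in both crosses, at 0.56 (adjusted p = 0.0319) in Piedmontese and 0.72 (adjusted p = 0.0093) in Wagyu, against 5.84% and 7.39% of genes. With median centring and all libraries the Wagyu change of ACLY turned to 0.19.

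The third question was whether the crosses differ. No member passed at any age by limma, over the post-natal mean, or in the change from 3 to 30 months. The background was as low, with 1.17% of genes called at 60 days, 0.0273% at 135 days, 0.0273% at 195 days, 1.48% at birth, 0% at each of 3, 7, 12, 20 and 25 months, 0.00683% at 30 months, 0.0273% for the post-natal mean and 0% for the change. A test that the cross difference varied over the 6 post-natal ages called 0% of genes and no member. Of the members, 1 had an unadjusted p under 0.05 at 135 days (AGPAT2, 1.38, and -0.19 without the 135-day library), 2 at 25 months, 1 at 30 months and 0 in each of the other comparisons.

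**Figure D4:**
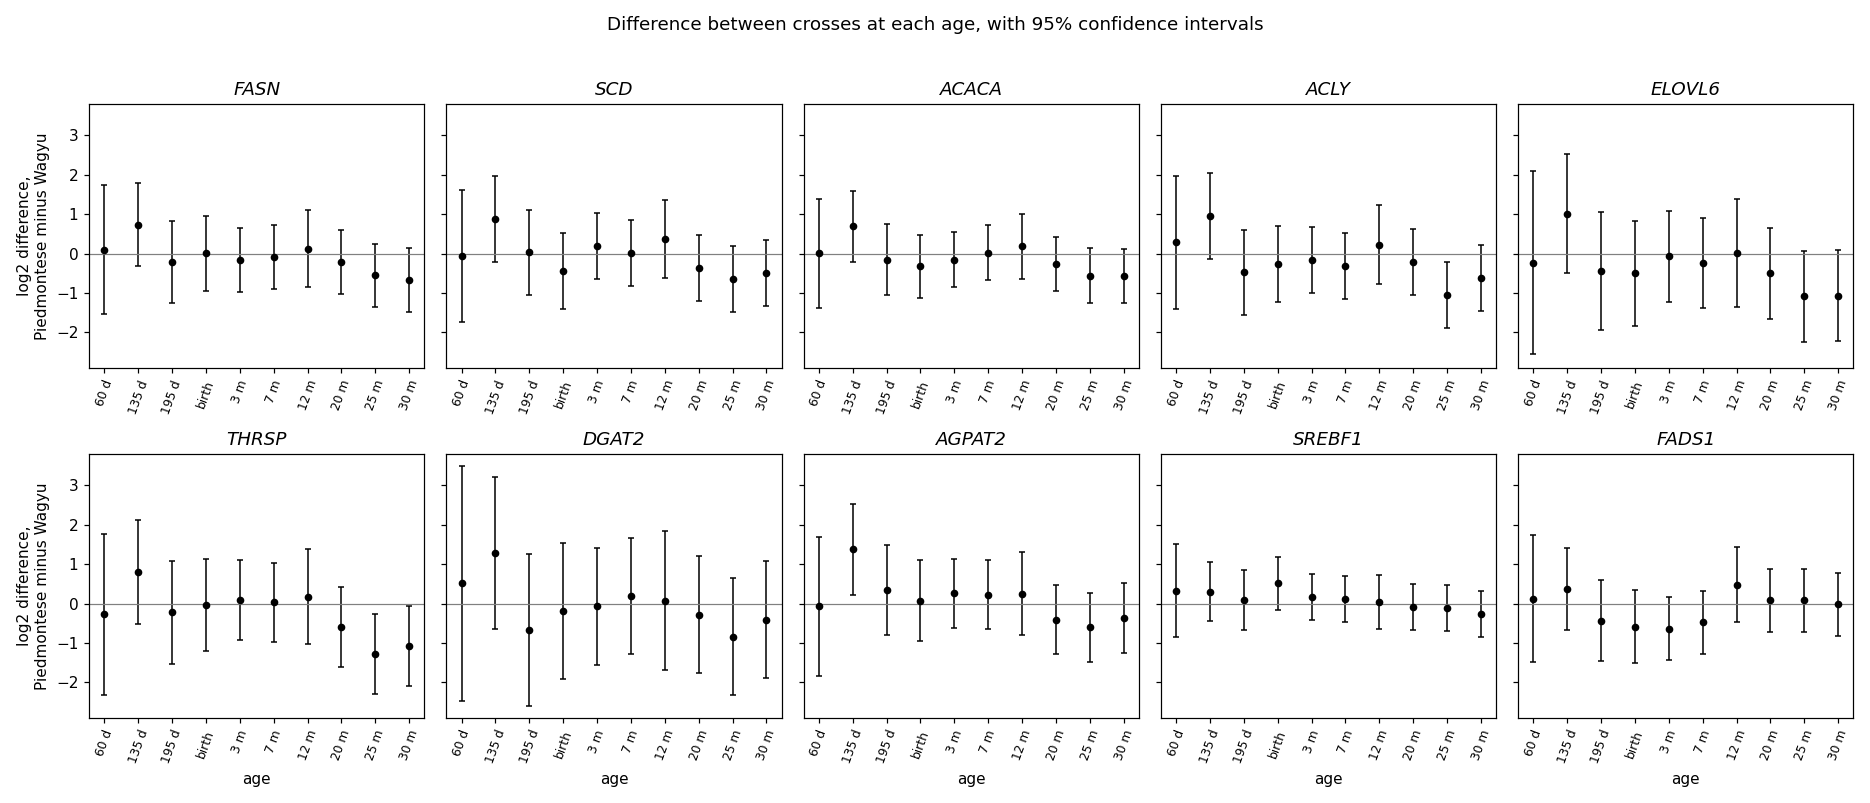
Piedmontese minus Wagyu difference in log2 intensity (vertical axis) of each gene at each age (horizontal axis), with 95% intervals of the limma fit and a line at no difference. No difference passed the adjusted threshold, and at 30 months the estimates of all 10 genes lie below 0.

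The sign of the differences varied with age. The estimates of 10 of 10 members were above 0, that is on the Piedmontese side, at 135 days (median difference 0.84) and at 12 months (median 0.18), and 1 of 10 was at 20 months (median -0.27). The first count includes the 135-day library, and the AGPAT2 estimate was below 0 without it. Within arrays of that age SCD, THRSP and SREBF1 were above 0 on 1 of 3 and the other members on 2 of 3. At 12 months, where Wagyu had 2 animals, the fit paired on arrays gave mixed signs. FASN (-0.04), ELOVL6 (-0.14), THRSP (-0.12) and DGAT2 (-0.25) were below 0 in it, and the other members above. At 25 months 9 of 10 members were lower in Piedmontese, with a median difference of -0.62, and at 30 months 10 of 10, with a median of -0.53, while the medians of all genes were 0.01 and 0.00. THRSP at 25 months was 9.36, 9.58, 9.999 and 10.69 in Piedmontese and 10.51, 10.57, 11.43 and 12.21 in Wagyu, so the groups overlapped. The difference was -1.28 (SE 0.50, 95% interval -2.29 to -0.26, unadjusted p = 0.0146, limma adjusted p = 1). ACLY at 25 months was 10.42, 10.46, 10.80 and 11.06 in Piedmontese and 10.82, 11.24, 11.31 and 13.55 in Wagyu, and the difference was -1.04 (SE 0.42, 95% interval -1.88 to -0.21, adjusted p = 1). The same Wagyu animal was the highest at both ages. Within arrays, where both crosses were hybridised together, SCD, ACLY, ELOVL6 and AGPAT2 were lower in Piedmontese on 4 of 4 arrays at 25 months, and THRSP and DGAT2 on 4 of 4 at 30 months. Adipocyte markers had a median difference of -0.57 at 25 months and -0.59 at 30 months, with 0 of 9 called. For the change from 3 to 30 months the difference between crosses was -1.17 for THRSP (95% interval -2.40 to 0.06) and -0.69 for SCD (95% interval -1.70 to 0.32). These intervals reach 0, and they also hold differences of more than 1 log2 unit, so the crosses are not shown to act alike.

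The diet experiment followed muscle through deprivation and re-alimentation, and the phase at each time is not given by the labels. At time 0, when 4 animals of each diet were compared, no member passed (3.59% of genes called, 0 members under an unadjusted limma p of 0.05). FADS1 was nevertheless higher in restricted animals on 4 of 4 arrays at this time, by 0.19 to 1.46, and the difference was 0.61 (SE 0.32, 95% interval -0.08 to 1.30, adjusted p = 0.36). At time 1 SCD and FADS1 passed and went in opposite directions, against 18.4% of all genes. SCD was 9.24, 9.51 and 9.67 in restricted animals and 8.49, 8.63, 8.71 and 9.0 in growth animals, so the groups did not overlap. It was higher on the restricted diet by 0.75 (SE 0.15, adjusted p = 0.00352), or 1.68-fold, and on 4 of 4 arrays. Its 2 bright probes differed by 1.22 and 0.99. FADS1 was 9.28, 9.42 and 9.78 in restricted and 10.13, 10.21, 11.09 and 11.13 in growth animals, again without overlap, and was lower by 1.19 log2 units (difference -1.19, SE 0.35, adjusted p = 0.0287) and on 4 of 4 arrays. With median centring FADS1 differed by -0.99 (adjusted p = 0.0596) and SREBF1 passed at 0.71 in its place. The FADS1 call was lost when each of 3 of the 4 arrays of that time was left out. The SCD call was kept under every alternative and every array left out. At time 2, with 2 animals per diet, no gene of the array passed (0% called), and AGPAT2 alone had an unadjusted p under 0.05, at -0.68 (limma unadjusted p = 0.0135).

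**Figure D5:**
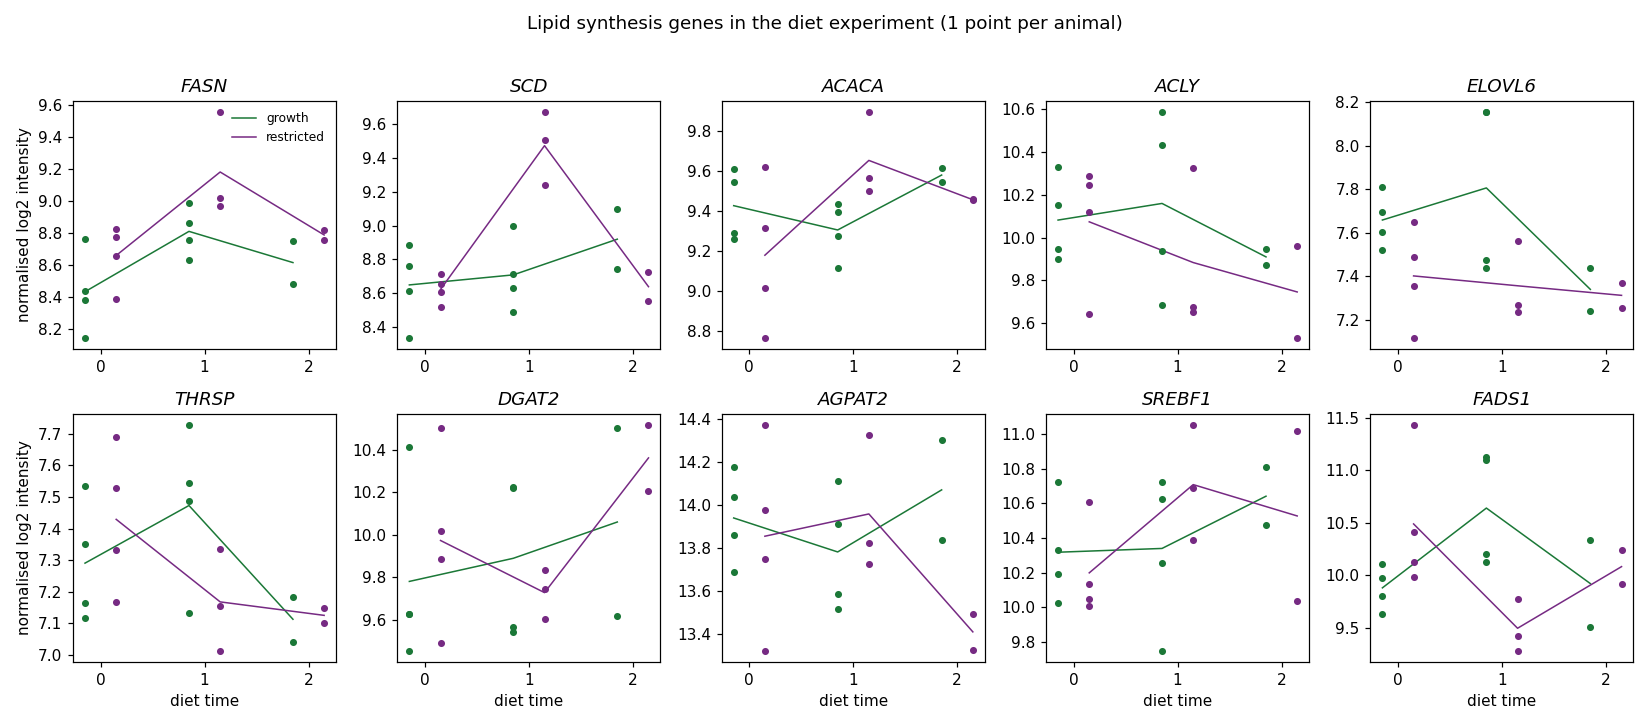
Normalised log2 intensity (vertical axis) of the 10 genes in growth and restricted animals at diet times 0, 1 and 2 (horizontal axis), with 1 point per animal and a line through the means. At time 1 the 3 restricted animals lie above all growth animals for SCD (9.24 to 9.67 against 8.49 to 9.0) and below them for FADS1 (9.28 to 9.78 against 10.13 to 11.13).

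Over time, each diet time is 1 slide, so a change within a diet and the slide cannot be told apart, whereas the difference between diets lies within slides. In restricted animals SCD rose from time 0 to 1 by 0.84 (SE 0.14, limma adjusted p = 0.00332), FASN by 0.53 (SE 0.16, adjusted p = 0.0401) and SREBF1 by 0.60 (SE 0.18, adjusted p = 0.0393), and FADS1 fell by 1.04 (SE 0.33, adjusted p = 0.0499), against 13% of genes. FASN went from 8.39, 8.65, 8.77 and 8.82 to 8.97, 9.02 and 9.55, and SREBF1 from 10.01, 10.04, 10.13 and 10.61 to 10.39, 10.69 and 11.05. From time 1 to 2 SCD fell by 0.81 (SE 0.17, adjusted p = 0.0163), back to 8.55 and 8.72, against 3.85% of genes. In growth animals no member passed from time 0 to 1 (3.38% of genes, 2 members under an unadjusted p of 0.05) or from 1 to 2 (0.00683% of genes, 1 member). FASN nevertheless rose from time 0 to 1 in 4 of 4 growth animals, by 0.10 to 0.61. In the fit paired on arrays its change differed between diets by 0.11, which did not pass. The change from time 0 to 1 differed between diets by 0.78 for SCD (SE 0.19, adjusted p = 0.0188) and by -1.80 for FADS1 (SE 0.44, adjusted p = 0.0212), against 10.6% of genes, and the change from 1 to 2 differed by -0.99 for SCD (SE 0.23, adjusted p = 0.0417), against 1.91%. The FADS1 value includes its difference of 0.61 at time 0. The SCD call from time 1 to 2 was lost under 5 of 12 other settings and in 6 of 8 fits that left out an array. In the fit paired on arrays it was kept (-0.98, adjusted p = 0.00339), and AGPAT2 (-0.93, adjusted p = 0.011) and FADS1 (1.30, adjusted p = 0.0296) were called for the same change, against 15.4% of genes. For the change from time 0 to 1 that fit called ACACA at 0.60 (adjusted p = 0.0447) beside SCD and FADS1, against 18.7%. Its units are arrays, however, and animals repeat among them. The 4 arrays of time 2 hold 2 restricted and 2 growth animals, and 1 restricted animal is on 2 arrays of time 1. These p-values therefore rest on fewer animals than arrays. Leaving out each of the 8 arrays of times 0 and 1 in turn kept the restricted rise of SCD in 8 cases, of SREBF1 in 3, of FASN in 2, and the fall of FADS1 in 1.

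Other markers moved at time 1. Of the 8 muscle fibre markers, 1 was higher and 6 lower in restricted animals, with a median difference of -1.40, and their mean ranged from 14.65 to 15.06 in restricted and 16.14 to 17.005 in growth animals. Of the 9 adipocyte markers 0 passed, their median difference was -0.75, and their mean ranged from 8.03 to 8.46 in restricted and from 8.08 to 9.48 in growth animals. Of 6 fibroblast and connective tissue markers, 4 were lower, their median difference was -2.86, and their mean ranged from 9.21 to 9.92 in restricted and from 11.84 to 12.86 in growth animals. Of 5 endothelial markers 3 were lower, with a median difference of -0.69. The part of these markers in the results for SCD and FADS1 was not tested.

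The other genes of the pathway, of which 43 of 49 listed were tested, did not all move with the members. From 3 to 30 months 18.6% of all genes passed in Piedmontese and 23.4% in Wagyu, and the counts here are read against these shares. Of 6 genes that supply acetyl-CoA and NADPH, 1 rose in Piedmontese and 2 in Wagyu. ME1, which makes NADPH, rose by 0.69 and 1.03, and the citrate carrier SLC25A1 by 1.03 in Wagyu. Of 11 other chain building and desaturation enzymes, 0 passed in Piedmontese, and in Wagyu 1 rose and FADS2, the desaturase that acts before FADS1, fell by 1.14. Of 14 glycerolipid enzymes, 2 rose and 1 fell in Piedmontese and 3 rose and 1 fell in Wagyu. GPAM, which catalyses the first acylation of glycerol phosphate, rose by 1.09 and 1.24, and AGPAT4 fell by 0.47 and 0.55. Of 12 regulators, 2 rose and 2 fell in Piedmontese and 4 rose and 1 fell in Wagyu. SREBF2, the relative of SREBF1 linked to cholesterol synthesis, fell by 0.56 and 0.70.

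Across birth genes of these lists went both ways. From fetus to post-natal life LPIN1, which makes diacylglycerol, rose by 3.82 in Piedmontese and 3.59 in Wagyu, AGPAT5 by 2.22 and 2.49, and MID1IP1, a relative of THRSP, by 2.16 and 2.45. AGPAT4 fell by 2.91 and 2.75 and SREBF2 by 2.61 and 2.43. Of the 12 regulators, 5 rose and 5 fell in Piedmontese and 4 rose and 4 fell in Wagyu, which lies near the share of all genes called in this contrast (71.8% and 69.7%). At diet time 1 the long-chain acyl-CoA synthetase ACSL4 was higher in restricted animals by 1.64 and ACSS2, which makes acetyl-CoA from acetate, by 0.79. AGPAT5 was lower there (difference -2.09), as was the synthetase ACSL1 (difference -1.28). Between the crosses, the elongase ELOVL4 was 1.28 higher in the Piedmontese fetus of 60 days, where each cross is 1 animal on 3 arrays.

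The members did not share 1 pattern over the study. Over the 26 condition means the median Pearson r among the 45 pairs of members was 0.50, and r ranged from -0.90 to 0.96. Over the 12 post-natal conditions the median was 0.86, and FASN, SCD, ACACA, ELOVL6, THRSP and DGAT2 correlated with one another at 0.95 to 0.99. FADS1 correlated with the other members at -0.64 to 0.21 there. By the measure of r over the 26 conditions, the genes most like FASN were ACACA (0.96), ELOVL6 (0.93) and SCD (0.91). Those most like DGAT2 were CIDEC (0.93), FABP4 (0.91) and TRARG1 (0.91). Among those most like FADS1 were SREBF2 (0.97) and CNP (0.97). Those most like SCD were CB439323 (0.92), THRSP (0.92) and FASN (0.91), and those most like THRSP were CB439323 (0.94), SCD (0.92) and BHMT2 (0.92). ACACA was nearest to FASN (0.96), ELOVL6 (0.90) and SCD (0.85), and ELOVL6 to FASN (0.93), TKT (0.92) and ACACA (0.90). ACLY was nearest to BM251836 (0.97) and COX8A (0.96), AGPAT2 to ETFB (0.92), FLAD1 (0.92) and BE750402 (0.91), and SREBF1 to PHLDB1 (0.95), WDR45 (0.95) and BEND7 (0.94). Conditions share animals, arrays and slides, and with the means of fetal, newborn, post-natal and diet conditions subtracted the median r among members was 0.66. The 26 condition means, with or without this subtraction, include the 135-day library, whose adipocyte mean was 12.65. No r over the 26 conditions is given without that library, so its part in these values is not known. The 12 post-natal conditions do not hold it.

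Within the 12 post-natal conditions the nearest genes changed for some members. THRSP was nearest to S100G (0.99), SCD (0.99) and DGAT2 (0.99), AGPAT2 to G0S2 (0.96), FABP4 (0.96) and ADIG (0.96), ACLY to ACSS2 (0.97), GRK3 (0.94) and SMAD9 (0.93), SREBF1 to RAB11FIP3 (0.96), BTBD11 (0.96) and RCAN2 (0.96), and FADS1 to TRAM1L1 (0.93), DHCR7 (0.93) and EXOSC7 (0.92). FASN was nearest to ELOVL6 (0.99), ACACA (0.99) and THRSP (0.98), SCD to THRSP (0.99), DGAT2 (0.99) and S100G (0.99), ACACA to FASN (0.99), ELOVL6 (0.99) and CKB (0.98), ELOVL6 to FASN (0.99), ACACA (0.99) and THRSP (0.98), and DGAT2 to SCD (0.99), THRSP (0.99) and FASN (0.98). The points share animals and slides, and no p is given.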

How the data were processed

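RNA of 96 channels on 48 arrays was analysed, as 64 values per animal and age in development and 19 values per animal and time in the diet experiment. The deposited files hold each spot's mean and background intensity in both dyes, read by the authors with Agilent Feature Extraction 9.5.1 according to the submitters' processing notes. The authors also deposited log10 ratios of Cy5 over Cy3, which were used as an alternative only, and 0 columns of the series table were left unused.

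Background was corrected with normexp (offset 50), which compresses changes of dim probes, followed by loess within and Aquantile between arrays in limma 3.58.1 (R 4.3.3, with version 1.17.8 of the data.table package). Probes well above background in at least 24 of 96 channels were kept, 15720 of 21475 in all and 15 of 18 probes of the 10 genes. Spots and then probes of a gene were averaged. Names of other genes came from RefSeq (ARS-UCD2.0), with 16752 probes matched and 4723 under the name in the files. Conditions were fitted with dye as covariate and animal as random block (correlation 0.266 and 43 residual degrees of freedom in development, 0.144 and 12 in the diet), and p-values were adjusted over 14634 genes by Benjamini-Hochberg at 0.05. All tests were two-sided. The scripts were tested on simulated data. The labels give separate animals, but p-values measure only the spread between these biopsies. The members, the gene lists and the marker lists were chosen with earlier results of these data known. All 10 genes were named, and of the listed pathway genes at most the 3 largest rises and the 3 largest falls past the threshold in a comparison. Each gene's nearest 3 genes by Pearson r were named as well, except 1 that is not reported here. Alternatives covered background correction, normalisation, filter, probe summary, blocks, pairing on arrays and each array left out. The drop of the 135-day library and the use of the authors' ratios were chosen after seeing the data.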

Additional observations from a re-analysis of the deposited data

Results flagged for a closer look

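In 12 of 140 groups of 4 or more animals, 1 animal lay farther from the others than Dixon's critical value allows, and chance gives about 1 in 20 independent groups. The groups hold the same animals for each member and are not independent, so the count cannot be read against that rate. The highest animal stood apart for ACLY in Piedmontese at 3 months (10.49) and 20 months (10.6), AGPAT2 at 25 months in Piedmontese (15.1) and Wagyu (16.22), SREBF1 in Wagyu at 3 months (10.65), and ACLY (12.3), DGAT2 (13.8) and SCD (12.05) in Wagyu at 30 months. The lowest stood apart for DGAT2 (10.04) and SREBF1 (9.735) in Piedmontese at 3 months, ACACA in Wagyu at 3 months (9.185) and AGPAT2 in Wagyu at 7 months (14.05).

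The diets differed in their change over time. For SCD the change from time 0 to 1 was larger in restricted animals by 0.7782 log2 units and the change from time 1 to 2 differed by -0.9884. For FADS1 the change from time 0 to 1 differed by -1.801. Each passed the limma test of the difference itself.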

How the results depend on the processing

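Over the 22 comparisons of ages 43 members were called, and 22 under median centring. Slide as a fixed replicate block gave 25 calls, 18 higher (72%) and 7 lower, against 14 over the same 14 comparisons. Of these, 12 lie in the step from 12 to 20 months, which had 0 in the main setting. Wagyu had 2 animals at 12 months. Leaving out arrays gave 35 to 59. Between crosses 0 to 0 were called with arrays left out, and 0 under each other alternative run. In the diet experiment 10 members were called, 6 under median centring (5 higher and 1 lower, 83.3% higher, against 50% in the main setting), 6 without the animal block, 8 with the ratio within each array and 9 with the authors' log ratios, each against 5 over the same 5 comparisons, and 4 to 10 with arrays left out. Without background correction 62.5% of the diet calls were higher. From fetus to post-natal life, Piedmontese gave 4 with 1 value per animal and 6 to 8 with arrays left out, and Wagyu 5 to 7. From 3 to 30 months, Piedmontese gave 0 under median centring, 2 without a filter on dim probes, 1 without the animal block and 1 to 4 with arrays left out, and Wagyu gave 3 under median centring and 4 to 9 with arrays left out. Restricted against growth at time 1 gave 1 to 2 with arrays left out. Restricted animals from time 0 to 1 gave 2 under median centring, 2 without the filter, 2 with the brightest probe, 1 without the animal block and 1 to 3 with arrays left out. The median r among members was 0.863 over post-natal conditions, 0.659 with stage means subtracted and 0.367 under median centring. The 53 calls of single members gave 685 values under other settings, of which 598 kept and 87 lost the call, and 717 values with arrays left out, of which 626 kept and 91 lost it. None reversed. The causes were not tested. Signal over background limits THRSP and the dim probes.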
